A study of Drosophila melanogaster with 90 samples.

Results

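Fertile females that carried 1 copy each of the transposon insertions KG00226 and NP6070 at the gene sov were compared with females that carried only 1 of these insertions. Members were the ovary libraries that the labels assign to these genotypes, 17 of the 90 libraries in the series, and 6 of the 17 came from KG00226 with NP6070. The study measured polyadenylated RNA by stranded sequencing in ovaries of Drosophila melanogaster females with many combinations of sov alleles. Each sample held 15 ovaries from females aged 4 to 5 days that were raised at 25 °C in constant light. Replicates were separate pools of ovaries, described as biological replicates, and whether they came from separate crosses is not stated. The edgeR p-values therefore measure the spread between pools of a genotype. Exact permutation tests shuffled single libraries across genotypes, so their p-values treat all pools of a side as independent and do not measure the spread between genotypes.

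The trans-heterozygotes carried y[1] P{SUPor-P}CG14438[KG00226] on one X chromosome and the GawB insertion NP6070, marked with w[+mW.hs] and on a y[*] w[*] chromosome, on the other, where CG14438 is an older symbol of sov. They were labelled in both written orders, KG00226/NP6070 (3 libraries) and NP6070/KG00226 (3 libraries), and what the order stands for is not given in the sources used here. The single-allele heterozygotes carried the w[1118] chromosome on the other X, as KG00226/w1118 (2 libraries), w1118/KG00226 (3), NP6070/w1118 (3) and w1118/NP6070 (3). All these females were labelled fertile. Every heterozygote carried w[1118] and no trans-heterozygote did, so the missing wild-type copy of sov and the missing w[1118] background cannot be told apart in this comparison. Homozygotes for KG00226 (fertile), NP6070 (sterile) and w1118 (fertile), with 3 libraries each, are given beside some results.

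The gene sov (small ovary) encodes a nuclear zinc-finger protein that is needed for oogenesis and for heterochromatin and transposon silencing in the ovary. In the fly germline, Piwi-interacting RNAs guide Argonaute proteins to transposon transcripts, which are cut in the cytoplasm or silenced at the chromatin with the help of H3K9 methylation. Fly telomeres are themselves built from non-LTR retrotransposons, HeT-A, TAHRE and TART, which the same pathway holds down. Genes inside heterochromatin, near the centromeres and on the fourth chromosome, can depend on heterochromatin proteins for their expression.

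Gene counts summed to between 3148547 and 10857835 per library. KG00226/w1118 replicate 3 was left out because 0.451% of its counts were from transposable elements, against 0.0314% to 0.0468% in the other heterozygote libraries. With it included, 799 features were higher and 934 lower in the main comparison below, and 60 element families rose. Of 7697 genes and element families tested with edgeR's quasi-likelihood test at a Benjamini-Hochberg adjusted p under 0.05, 1074 (14%) were higher and 1011 (13.1%) lower in trans-heterozygotes than in the 11 heterozygotes. The median log2 difference was 0.01, and 182 features (2.36%) rose and 153 (1.99%) fell by more than 2-fold. These counts rest on the spread between libraries of a genotype: 287 and 345 were called when the libraries were pooled into 2 groups, and 76 and 15 when counts were summed by genotype. Scaled to the ERCC spike-in, 1971 were higher and 135 lower, and the median of all features was 0.38. Levels below are CPM (library-scaled counts after TMM normalization), and differences are log2 values of trans-heterozygotes over heterozygotes with their standard error (SE). CPM is not corrected for transcript length, so levels are compared between libraries and not between genes.

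Transcript levels of sov itself did not pass the test. Its position is X:6756322-6770712, plus strand, in BDGP6. It had 137, 107 and 112 CPM in KG00226/NP6070 and 160, 173 and 187 CPM in NP6070/KG00226, against 119 to 177 CPM (median 141) in the heterozygotes. The ranges overlapped, and the difference was 0.05 (SE 0.06, adjusted p = 0.579 with edgeR). Per ERCC spike-in count, sov was 1.33-fold higher in trans-heterozygotes, a log2 difference of 0.41 beside the median of 0.38 for all features on that scale (exact two-sided permutation test, p = 0.0454). An antisense RNA, lncRNA:CR43496, lies inside sov, and whether strand was used in counting is not stated.

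Marker genes carried by the insertions differed between the genotypes. The eye colour gene w had 194 to 226 CPM in the 6 trans-heterozygote libraries, against 2.80 to 7.66 CPM in KG00226 heterozygotes and 27.5 to 32.7 CPM in NP6070 heterozygotes, and NP6070 carries a w+ construct by its label. The pigment gene y had 2.95 to 9.27 CPM in trans-heterozygotes, against 5.05 to 17.4 CPM in KG00226 heterozygotes and 0.197 to 0.803 CPM in NP6070 heterozygotes. Homozygotes had 412 to 469 CPM of w (NP6070) and 3.87 to 6.58 CPM (KG00226). Transcripts of w thus exceeded those of both heterozygotes, although trans-heterozygotes and NP6070 heterozygotes each carried 1 copy of NP6070. The cause was not tested. Transcripts of y were high in every library with KG00226.

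Transposable element RNA was far higher in the fertile trans-heterozygotes. In these whole-ovary samples more or fewer cells of a type and more or less RNA per cell cannot be told apart. Elements took 0.809%, 0.758% and 0.981% of gene and element counts in KG00226/NP6070 and 1.49%, 1.02% and 1.82% in NP6070/KG00226, against 0.0314% to 0.0468% (median 0.0382%) in the 11 heterozygote libraries. All 6 trans-heterozygote libraries lay above these 11, and the mean share was 27.6-fold higher, a log2 difference of 4.79 (p = 8.08e-05 in an exact two-sided permutation test, the smallest that 12376 arrangements can give). Per 100 ERCC counts the element counts were 7218 to 11586 (median 9821) in trans-heterozygotes, against 160 to 458 (median 304) in heterozygotes, a 34.4-fold difference and 5.10 in log2 (p = 8.08e-05 by the same exact test). The spike-in came in 2 subpools, and within them the log2 difference in share was 4.76 (78A) and 4.83 (78B). The KG00226/w1118 library left out for its element share (0.451%) lay between the groups. With it included the difference was 22.5-fold (4.49 in log2) in share and 28.3-fold (4.82) per ERCC count.

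**Figure D1:**
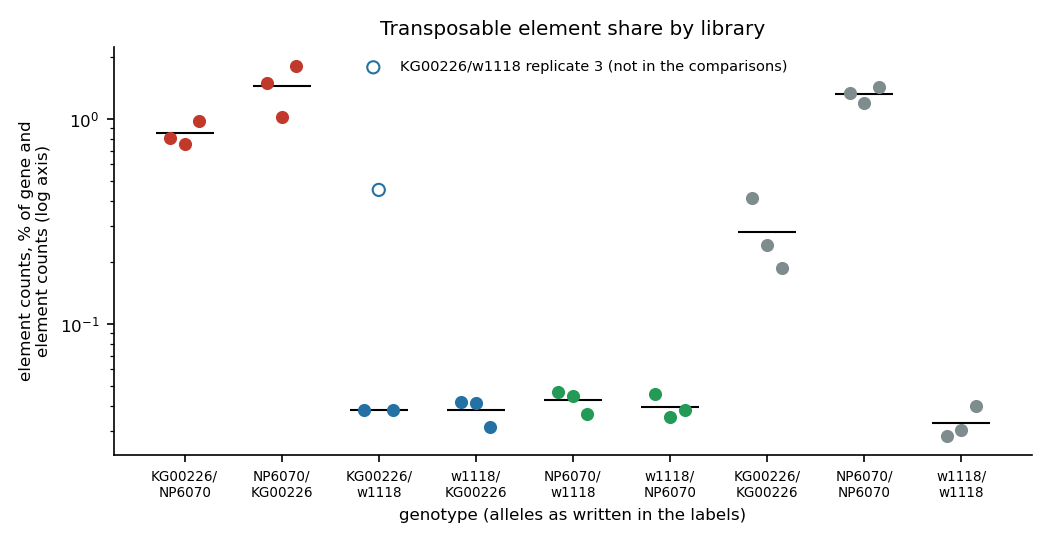
Element counts as a percentage of gene and element counts in each library (log axis), by genotype; each point is 1 library and lines are group means. The open point is the KG00226/w1118 library left out of the comparisons. The 6 trans-heterozygote libraries lie between 0.758% and 1.82%, above all 11 heterozygote libraries (0.0314% to 0.0468%) and beside the NP6070 homozygotes (1.20% to 1.43%).

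Among the fertile and sterile homozygotes, the trans-heterozygotes stood nearer to the sterile ones in this measure. KG00226 homozygotes, which are fertile, had an element share of 0.187% to 0.411%, below all 6 trans-heterozygotes (log2 difference 2.04, exact two-sided permutation test, p = 0.0119, the smallest possible). NP6070 homozygotes, which are sterile, had 1.20% to 1.43%, and the ranges overlapped (log2 difference -0.28, p = 0.369 by the same exact test). A p above the threshold does not show that these shares are alike. Without telomeric elements, the share in trans-heterozygotes (0.121% to 0.344%) lay between the homozygotes and overlapped neither. It was 0.0519% to 0.0716% in KG00226 homozygotes and 0.453% to 0.524% in NP6070 homozygotes.

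Of 147 element families counted, 96 passed the count filter and were tested. Among these 96, 73 rose and 1 fell in trans-heterozygotes against all heterozygotes, with a median of 2.08, beside 14% and 13.1% of all features. Families near 0 in heterozygotes could pass the filter only through the trans-heterozygote libraries, which favours rises in this count. Against KG00226 heterozygotes alone 69 rose and 1 fell (21.1% and 20.7% of all features), and against NP6070 heterozygotes alone 72 rose and 1 fell (9.33% and 8.54%). These comparisons share the trans-heterozygote libraries. In 51 families that rose in all 3 comparisons, every trans-heterozygote library lay above every heterozygote library, which held for 127 of all tested features (1.65%), while 70 (0.909%) lay below in every library. The KG00226/w1118 library left out for its element share was not among these, which favours rises and lack of overlap in element families. With it included, 60 families rose against all heterozygotes, 49 against KG00226 heterozygotes and 60 against NP6070 heterozygotes. How reads of near-identical copies were assigned is not stated, so related families may share reads.

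Telomeric retrotransposons changed most. All 4 tested families rose, with a median of 6.95, and together they had 5904 to 14316 CPM in trans-heterozygotes against 24.9 to 75.6 CPM in heterozygotes. HETA, the HeT-A consensus that makes up most of the telomere array, had 5042, 4621 and 6106 CPM in KG00226/NP6070 and 7809, 6825 and 10391 CPM in NP6070/KG00226, against 14.1 to 51.8 CPM (median 26.3) in heterozygotes. It rose by 7.97 (SE 0.21, adjusted p = 1.98e-15). TAHRE and TART encode the reverse transcriptase that HeT-A lacks. TAHRE had 815, 699 and 1045 CPM in KG00226/NP6070 and 1838, 1306 and 2385 CPM in NP6070/KG00226, against 6.31 to 14.499 CPM in heterozygotes, a rise of 7.07 (SE 0.15). TART had 707, 580 and 823 CPM and 1179, 950 and 1533 CPM in the same orders, against 3.22 to 21.98 CPM in heterozygotes, a rise of 6.82 (SE 0.17). For all 3 families the groups were far apart and did not overlap. Telomeric families made up 77.0% to 88.1% of element counts in trans-heterozygotes, against 6.16% to 20.1% in heterozygotes.

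The rise was not limited to telomeric families. The share of counts from all other elements was 0.121% to 0.344% in trans-heterozygotes, against 0.0282% to 0.0427% in heterozygotes, 5.51-fold higher (exact two-sided permutation test, p = 8.08e-05, the smallest possible). The left-out KG00226/w1118 library had 0.277%, inside the trans-heterozygote range. Of 43 other LTR retrotransposon families 40 rose and none fell, with a median of 2.97. Of 23 other non-LTR families 16 rose (median 1.62), and of 13 gypsy-type families with an env gene 7 rose (median 1.36). DNA transposons had the lowest median, 0.50, with 6 families higher and 1 lower among 13. Summed DNA transposon levels were 121 to 136 CPM in trans-heterozygotes and 78.9 to 157 CPM in heterozygotes, and these ranges overlapped.

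Among LTR families, Gypsy12 had 700, 815 and 754 CPM in KG00226/NP6070 and 1846, 492 and 1339 CPM in NP6070/KG00226, against 5.14 to 23.1 CPM in heterozygotes, a rise of 6.11 (SE 0.23, adjusted p = 6.42e-13). BATUMI had 91.8, 83.2 and 85.2 CPM in KG00226/NP6070 and 301, 66.5 and 290 CPM in NP6070/KG00226, against 1.17 to 4.97 CPM in heterozygotes, a rise of 6.04 (SE 0.32). Both families varied more among trans-heterozygotes than HETA did, with replicates 1 and 3 of NP6070/KG00226 highest. The other families among the 10 largest rises without overlap of libraries were TART_B1 (6.05), HELENA_RT (5.00), Ulysses_I-int (4.92), Stalker2 (4.80) and Copia1 (4.44), which had at most 0.523 CPM in any heterozygote library. At these levels they passed the count filter only through the trans-heterozygote libraries. Their rise and lack of overlap are thus no separate support, and the size of the rise is uncertain. Stalker2 had 3 counts over all heterozygotes, and the ratio of pooled levels was 36.0 (exact Poisson 95% interval 11.7 to 180, counting error only).

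**Figure D2:**
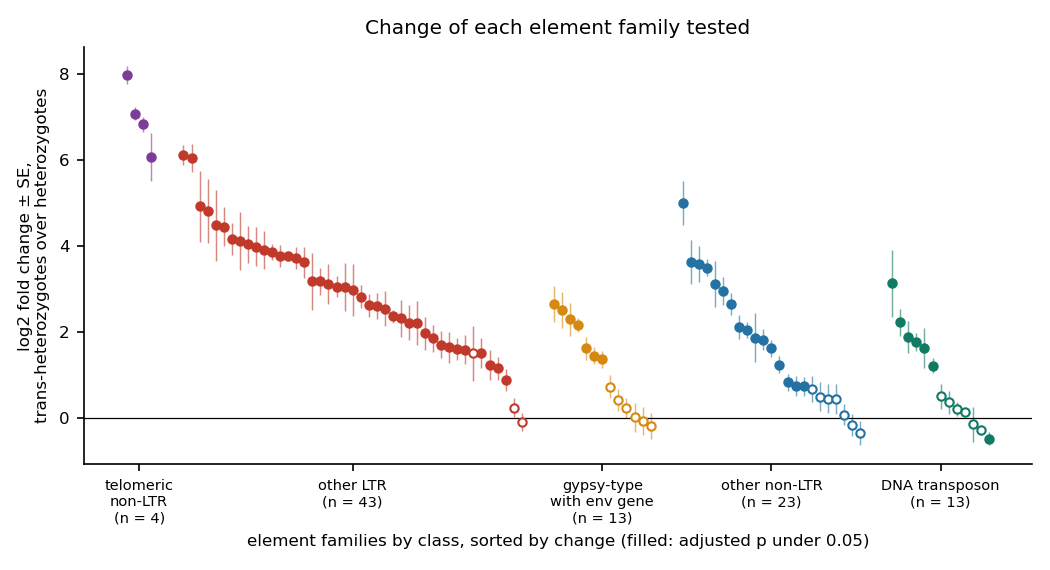
Log2 difference of trans-heterozygotes against all heterozygotes for the 96 tested element families, grouped by class; each point is 1 family with its SE, filled where the adjusted p was under 0.05. The 4 telomeric families have a median of 6.95, other LTR families 2.97 and DNA transposons 0.50.

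Some families did not pass the test. PROTOP_B, a P-element relative, was the only family that fell among the 96, at 3.63 to 7.36 CPM in trans-heterozygotes against 6.21 to 8.60 CPM in heterozygotes (log2 difference -0.48, SE 0.15, adjusted p = 0.0253), and its groups overlapped. The 22 families that did not pass ranged from -0.35 for DOC to 1.51 for NINJA. DOC, a non-LTR element, had 27.3 to 77.7 CPM in trans-heterozygotes and 22.7 to 130 CPM in heterozygotes. ROO and TIRANT stood at 0.24 and 0.23, MDG1 at -0.09 and HOBO at 0.20. GTWIN stood at 0.73 and QUASIMODO at 0.41. Both are gypsy-type elements with an env gene.

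**Figure D3:**
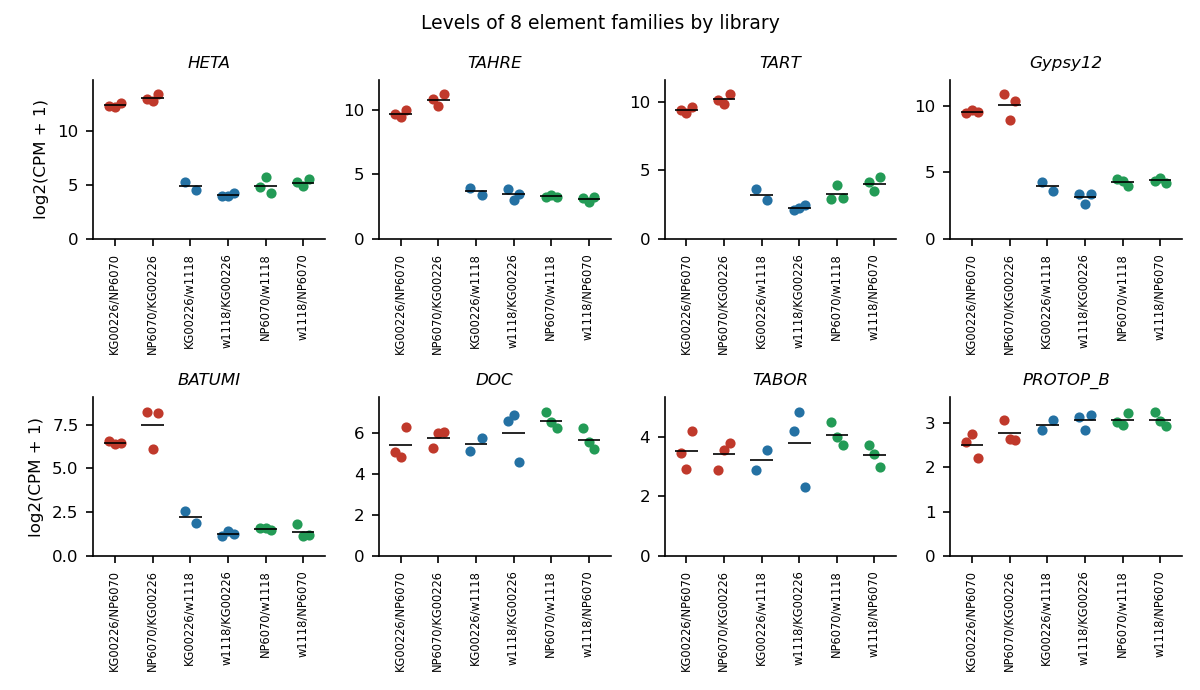
Levels of 8 element families, log2(CPM + 1), in each library by genotype, with a line at the mean; each point is 1 library. HETA, TAHRE, TART, Gypsy12 and BATUMI are separated between trans-heterozygotes and heterozygotes, while DOC, TABOR and PROTOP_B overlap.

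Set against the homozygotes, families differed. HETA was 1.91 higher in trans-heterozygotes than in KG00226 homozygotes (SE 0.28, adjusted p = 6.9e-05) and 0.28 from NP6070 homozygotes (adjusted p = 0.45). BATUMI was 4.43 higher than in KG00226 homozygotes and 1.45 lower than in NP6070 homozygotes, where it had 346 to 381 CPM. Gypsy12 was 2.92 higher than in KG00226 homozygotes and 1.28 lower than in NP6070 homozygotes. Of the 96 families, 36 were higher and 1 lower than in KG00226 homozygotes, beside 5.73% and 8.21% of 7822 features (21 families higher without KG00226 homozygote replicate 3, and 20 with the left-out KG00226/w1118 library). Against NP6070 homozygotes 0 families were higher and 63 lower (11.2% and 12.6% of features), and no telomeric family was among the 63.

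The 2 insertions were also tested for a departure from additive effects, as the trans-heterozygote level plus that of w1118 homozygotes minus those of both heterozygotes on the log2 scale. A total of 436 features (5.57%) were higher and 432 (5.52%) lower than the sum of the single-insertion effects, or 288 higher without w1118/w1118 replicate 3 and 274 and 277 lower without KG00226/w1118 replicate 2 and w1118/w1118 replicate 1. With the left-out KG00226/w1118 library the counts were 262 and 201. Among them were 35 higher element families and no lower one (21 higher without w1118/w1118 replicate 1, and 10 with the left-out KG00226/w1118 library). HETA stood 7.46 above additivity (SE 0.43, adjusted p = 2.8e-11), Gypsy12 5.96 (SE 0.47) and BATUMI 5.96 (SE 1.17). A transcript tied to the number of copies of a chromosome need not sum to 0 on a log scale.

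Host genes that rose most had low levels in heterozygotes. By the rule for naming genes (called against all heterozygotes and against each kind alone, no overlap of libraries, largest change), the 10 risers were CG32437, dysf, CG10508, spok, lncRNA:CR46250, Sox21b, twz, flip, CG34357 and TkR99D. In all, 278 genes rose and 301 fell in all 3 comparisons, with 66 elements also higher, beside 4.47% of features higher and 3.91% lower. Without overlap of libraries, 75 of these genes were higher and 69 lower.

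The gene dysf, a bHLH-PAS transcription factor of tracheal fusion cells, had 25.8, 13.2 and 22.5 CPM in KG00226/NP6070 and 43.3, 8.95 and 49.9 CPM in NP6070/KG00226, against 0.207 to 1.12 CPM in KG00226 heterozygotes and 0 to 0.602 CPM in NP6070 heterozygotes (7.19, SE 0.51, adjusted p = 3.77e-08). CG10508 had 38.5, 47.1 and 58.1 CPM and 86.6, 69.0 and 104 CPM in the same orders, against 2.80 to 7.19 CPM in KG00226 heterozygotes and 0 to 0.256 CPM in NP6070 heterozygotes (6.49, SE 0.22). Both genes had counts in all 5 KG00226 heterozygotes. Among the 6 NP6070 heterozygotes dysf had counts in 1, and CG10508 reached at most 0.256 CPM. KG00226 homozygotes averaged 11.05 CPM for dysf and 19.5 CPM for CG10508. In NP6070 homozygotes dysf was at 0 and CG10508 averaged 0.312 CPM.

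CG32437 had 4.34, 5.79 and 7.27 CPM in KG00226/NP6070 and 24.7, 1.29 and 15.1 CPM in NP6070/KG00226, against 2 counts over all heterozygotes, and NP6070 homozygotes averaged 50.0 CPM while KG00226 homozygotes were at 0. The ratio of pooled levels was 246 (exact Poisson 95% interval 67.5 to 2047). The gene twz had 0.553 to 6.95 CPM in trans-heterozygotes against 0 to 0.292 CPM in heterozygotes, and averaged 29.3 CPM in NP6070 homozygotes and 0.18 CPM in KG00226 homozygotes. In both genes replicate 2 of NP6070/KG00226 was the lowest of the 6 trans-heterozygote libraries.

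The gene spok (spookier), a cytochrome P450 of ecdysteroid synthesis in the larval prothoracic gland, had 0.184 to 2.67 CPM in all 6 trans-heterozygote libraries and no count in any heterozygote. It was at least 26.2-fold higher, taking 3 counts over the heterozygotes as the limit. Sox21b, an HMG-box transcription factor, had 0.553 to 12.997 CPM against at most 0.280 CPM in heterozygotes. TkR99D, a tachykinin receptor, had 2.36 to 5.22 CPM, against 0.292 to 1.68 CPM in KG00226 heterozygotes and 0 in all NP6070 heterozygotes, where it was at least 50.3-fold higher. These genes are known from other tissues, and all were low in counts.

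The 10 largest falls by the same rule were in CG5391, CG31999, CG14535, CG7408, CG11700, Cyp4aa1, lncRNA:CR43250, TM4SF, asRNA:CR45714 and CG17026. CG5391 had 1 count over all trans-heterozygotes and 112 over heterozygotes, a ratio of 0.0175 (exact Poisson 95% interval 0.00044 to 0.0997). CG7408 had 1.20 to 2.27 CPM in trans-heterozygotes, against 6.74 to 13.8 CPM in heterozygotes (-2.67, SE 0.19, adjusted p = 7.48e-09). CG11700 had 0.908 to 3.03 CPM, against 8.37 to 16.2 CPM in heterozygotes (-2.58, SE 0.20).

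Some of these fallers were highest in w1118 homozygotes. CG11700 averaged 25.9 CPM in w1118 homozygotes, 1.21 CPM in KG00226 homozygotes and 1.28 CPM in NP6070 homozygotes. CG7408 averaged 18.6 CPM in w1118 homozygotes and 1.91 CPM in KG00226 homozygotes, and asRNA:CR45714 averaged 4.52 CPM in w1118 homozygotes against 0.436 and 0.205 CPM in the KG00226 and NP6070 homozygotes. CG7408 averaged 5.82 CPM in NP6070 homozygotes. For these genes an effect of sov and one of stock background cannot be told apart.

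In the piRNA pathway, AGO3 was the member that changed most. AGO3, the partner of Aubergine in the ping-pong cycle that amplifies piRNAs, had 35.04, 51.0 and 46.8 CPM in KG00226/NP6070 and 17.4, 53.3 and 20.1 CPM in NP6070/KG00226, against 139 to 189 CPM (median 160) in heterozygotes. It fell by 2.07 (SE 0.16, adjusted p = 2.94e-08), and the groups did not overlap. The other Piwi-family genes did not pass the test against all heterozygotes: piwi stood at -0.11 and aub at -0.07. Against KG00226 heterozygotes alone all 3 Piwi-family genes were lower (median -0.32), beside 20.7% of all features lower. Against NP6070 heterozygotes alone 1 was higher and 1 lower (9.33% and 8.54% of all features), so the direction differed by control. KG00226 homozygotes averaged 123 CPM of AGO3 and NP6070 homozygotes 23.4 CPM. AGO3 lies in the heterochromatin of 3L (23554593 to 23689640).

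The counts of piRNA pathway genes below stand beside 14% of all features higher and 13.1% lower. Of 12 tested genes of piRNA cluster transcription 1 rose and 1 fell. The faller was moon, a TFIIA-like factor for clusters bound by Rhino, at 3.03 to 6.81 CPM in trans-heterozygotes against 9.24 to 15.6 CPM in heterozygotes (-1.48, SE 0.18). Of 8 nuclear silencing genes 2 rose and 1 fell. Among them wde, a cofactor of the H3K9 methyltransferase Eggless, had 149.1 to 187 CPM in trans-heterozygotes against 106 to 149.0 CPM in heterozygotes (0.42, SE 0.05). Of 21 nuage and biogenesis genes 2 rose and 2 fell, the fallers being armi and spn-E at -0.16 and -0.19 (0.20 and 0.17 when scaled to ERCC). Of 31 heterochromatin protein genes 7 rose and none fell (median 0.07, beside 0.01 for all features). Against KG00226 heterozygotes 12 rose and 0 fell (21.1% and 20.7% of all features), and against NP6070 heterozygotes 2 rose and 3 fell (9.33% and 8.54%). The H3K9 methyltransferase gene G9a stood at 0.31 (SE 0.05).

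**Figure D4:**
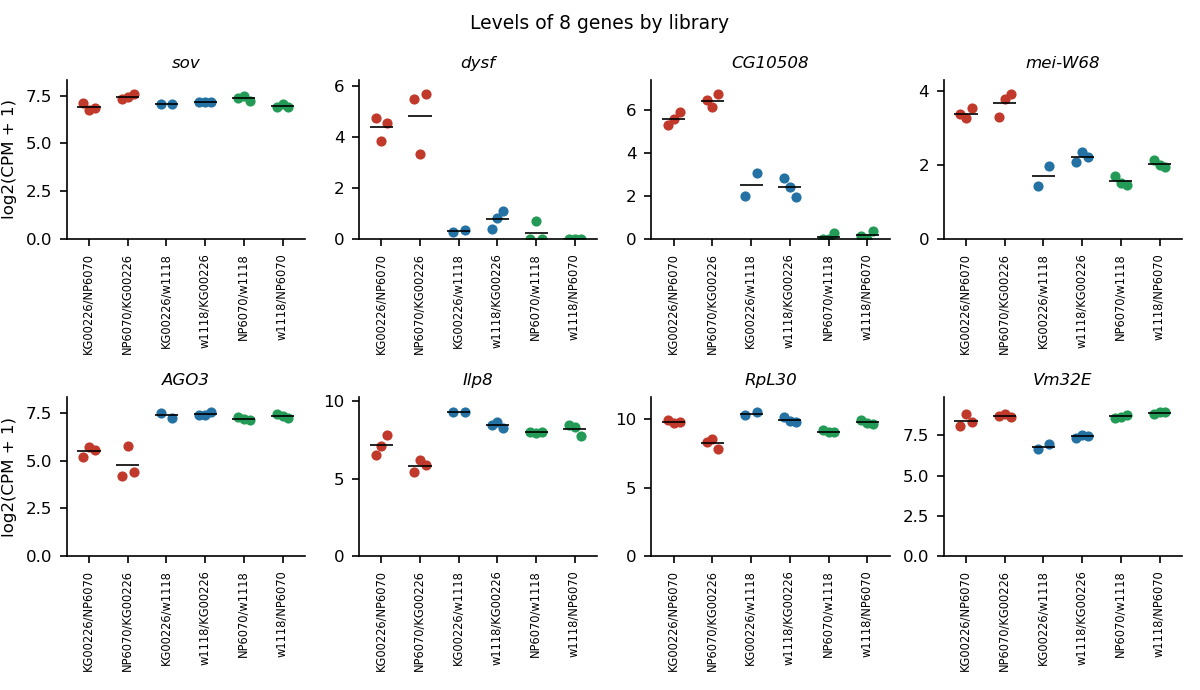
Levels of 8 genes, log2(CPM + 1), in each library by genotype, with a line at the mean; each point is 1 library. In trans-heterozygotes dysf, CG10508 and mei-W68 lie above and AGO3 below all heterozygotes, while sov overlaps.

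Many genes inside heterochromatin were lower. Of 66 tested genes on chromosome 4, 30 (45.5%) fell and 7 (10.6%) rose, with a median of -0.18. Of 166 tested genes in pericentric blocks, 44 (26.5%) fell and 24 (14.46%) rose, with a median of -0.06. Of the 7369 genes outside both, 12.7% fell and 13.2% rose. Against KG00226 heterozygotes alone 5 genes of chromosome 4 rose and 33 (50.0%) fell, beside 21.0% of all tested genes lower. Against NP6070 heterozygotes alone 6 rose and 15 (22.7%) fell, beside 8.63% lower. The difference between regions was not tested. These counts rest on TMM scaling. Scaled to ERCC, 135 of all features were lower instead of 1011 and the median of all features was 0.38, and the regions were not counted on that scale.

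The genes named in heterochromatin were chosen after their values were seen. Besides AGO3, Vps11 (a subunit of the HOPS tethering complex, 3L) had 55.0, 56.5 and 50.0 CPM in KG00226/NP6070 and 15.3, 48.0 and 21.4 CPM in NP6070/KG00226, against 80.6 to 125 CPM in heterozygotes (-1.42, SE 0.14, adjusted p = 1.42e-06). Parp1, the poly(ADP-ribose) polymerase, had 28.7 to 71.9 CPM in trans-heterozygotes against 89.0 to 143 CPM in heterozygotes (-1.22, SE 0.13). On chromosome 4, unc-13, which primes synaptic vesicles in neurons, had 35.3 to 120 CPM against 130 to 222 CPM (-1.18, SE 0.15). Replicates 1 and 3 of NP6070/KG00226 had the lowest values of AGO3, Vps11 and unc-13, and the highest values of BATUMI and Gypsy12. Other genes that fell were Maf1 (-0.96), UQCR-11 (-0.92), BckdhB (-0.89), Nipped-A (-0.54), rl (-0.49) and lt (-0.39).

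Other heterochromatic genes rose. Syt7 (a synaptotagmin, chromosome 4) had 9.27, 14.6 and 12.5 CPM in KG00226/NP6070 and 15.0, 10.97 and 14.8 CPM in NP6070/KG00226, against 0 to 1.12 CPM in heterozygotes (4.28, SE 0.24, adjusted p = 3.89e-10). CG32017 on chromosome 4 had 6.55 to 12.7 CPM against 0 to 1.68 CPM (4.39, SE 0.29). The glutamate receptor gene mGluR had 7.12 to 10.6 CPM against 1.68 to 4.91 CPM (1.33, SE 0.18). In all of these the libraries did not overlap, and genes of chromosome 4 moved in both directions. At such low heterozygote levels Syt7 and CG32017 passed the count filter through the trans-heterozygote libraries, so their lack of overlap is no separate support.

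**Figure D5:**
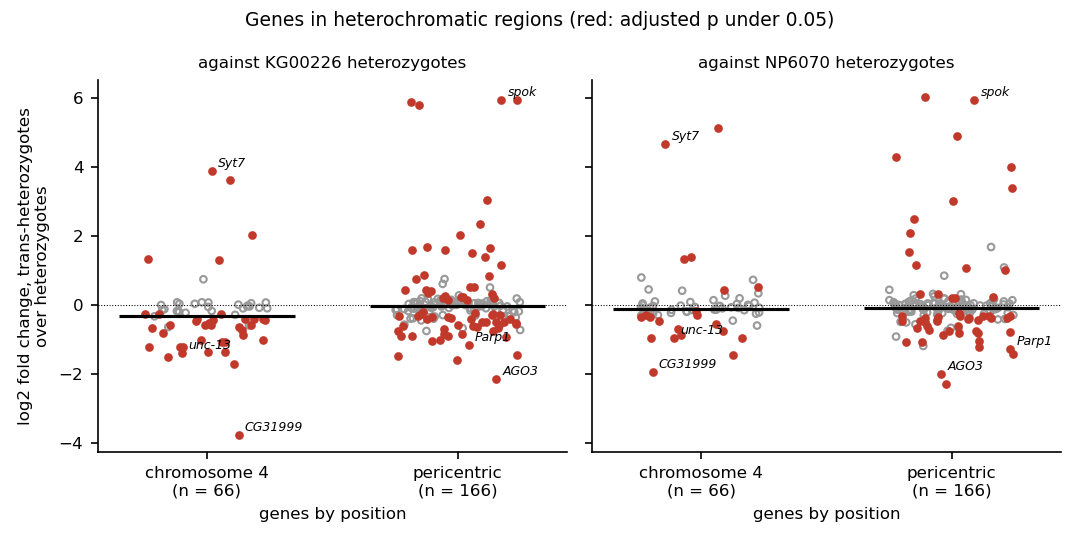
Log2 differences of trans-heterozygotes against KG00226 heterozygotes and against NP6070 heterozygotes for the tested genes of chromosome 4 (n = 66) and of pericentric blocks (n = 166); each point is 1 gene, red where the adjusted p was under 0.05, and the black line is the median. AGO3 lies at -2.14 and -2.003 in the 2 comparisons.

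Annotated transposon insertions lay near many of the genes with a change over 2-fold. In the annotation, 45.9% (51 of 111) of genes that rose over 2-fold had an insertion within 5 kb, as did 35.6% (53 of 149) of those that fell over 2-fold and 23.6% (1777 of 7518) of all tested genes. Outside pericentric blocks and chromosome 4 the shares were 35.5%, 31.7% and 21.7%. The annotated insertions are those of the reference strain, and insertions of these stocks were not analysed here. Of the 10 named risers 6 had an insertion within 5 kb, and 2 of these, flip (Burdock) and CG34357 (Fw2), overlapped it. Sox21b, twz and TkR99D lay 114292, 150964 and 59623 bp from the nearest one. Of the 10 named fallers 5 had one within 5 kb, and CG31999 overlapped it (Tc1-2). Insertions also overlapped AGO3, Parp1, unc-13, Syt7 and CG32017, all in heterochromatin.

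Genes of egg formation were counted beside 14% of all features higher and 13.1% lower. Of 16 vitelline membrane genes 8 rose and none fell, with a median of 0.44. Their summed level was 13715 to 22386 CPM in trans-heterozygotes, against 7712 to 13241 CPM in KG00226 heterozygotes and 18009 to 21948 CPM in NP6070 heterozygotes, so KG00226 heterozygotes were the low group. Vm32E, a vitelline membrane protein, had 264 to 459 CPM in trans-heterozygotes, against 100 to 184 CPM in KG00226 heterozygotes and 386 to 502 CPM in NP6070 heterozygotes (1.48 and -0.20, adjusted p = 2.95e-08 and 0.159). Of 27 chorion genes 3 rose and 3 fell (median 0.03), with Cp15 at -0.74 and Cp19 at -0.54. Against KG00226 heterozygotes 8 rose and 3 fell, and against NP6070 heterozygotes 1 rose and 5 fell. Of 7 yolk genes 2 fell, among them Yp2 at -0.60.

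Of 35 oocyte and maternal genes 11 rose and 2 fell, beside the same 14% and 13.1%. Their direction differed by control, with 21 higher and 4 lower against KG00226 heterozygotes (21.1% and 20.7% of all features) and 2 higher and 8 lower against NP6070 heterozygotes (9.33% and 8.54%). Among them orb2, a CPEB-family translational regulator, had 24.9 to 39.9 CPM in trans-heterozygotes against 11.6 to 21.5 CPM in heterozygotes (1.03, SE 0.08, adjusted p = 2.77e-08), and zld, the zygotic genome activator, stood at 0.56. The fallers were alpha-Spec (-0.47) and the dorsal-ventral ligand gene grk (-0.34, but 0.046 when scaled to ERCC). Of 20 meiosis genes 6 rose and 1 fell. Among them mei-W68, the Spo11 homologue that makes meiotic breaks, had 9.27, 8.54 and 10.4 CPM in KG00226/NP6070 and 8.84, 12.6 and 13.9 CPM in NP6070/KG00226, against 1.66 to 4.04 CPM in heterozygotes. It rose by 1.99 (SE 0.15, adjusted p = 2.94e-08) with no overlap. The gene nenya, which also acts in meiotic recombination, stood at 1.02 and c(3)G, of the synaptonemal complex, at -0.33 (0.035 when scaled to ERCC). Of 17 early germline genes 6 rose, none above 0.28, and tut fell by 1.22. Against KG00226 heterozygotes 8 early germline genes rose and 2 fell, and against NP6070 heterozygotes 2 rose and 3 fell. For the meiosis genes these counts were 8 and 2 against KG00226 heterozygotes, and 3 and 1 against NP6070 heterozygotes.

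Some peptide and octopamine receptor genes fell. Ilp8, a relaxin-like peptide, had 91.8, 139 and 230 CPM in KG00226/NP6070 and 42.7, 72.2 and 58.2 CPM in NP6070/KG00226, against 217.7 to 644 CPM in heterozygotes (-1.93, SE 0.16, adjusted p = 7.57e-08). Ilp7 had 4.33 to 27.9 CPM against 19.4 to 68.1 CPM (-2.11, SE 0.25), and both peptides had 1 overlapping trans-heterozygote library, replicate 3 of KG00226/NP6070. lncRNA:CR43250, next to Ilp8 on 3L, had 2.14 to 17.3 CPM against 18.5 to 89.7 CPM (-2.44, SE 0.20). Octbeta2R and Oamb, octopamine receptors of ovulation, stood at -1.45 and -1.03. Of 5 tested oviduct and sperm storage markers 3 fell, beside 13.1% of all features lower. Against KG00226 heterozygotes 3 fell (20.7% of all features) and against NP6070 heterozygotes 1 fell (8.54%). The summed level of these markers was 102 to 143 CPM in trans-heterozygotes. It was 176 to 322 CPM in KG00226 heterozygotes and 125 to 216 CPM in NP6070 heterozygotes, and only this last range overlapped that of trans-heterozygotes.

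Ribosomal protein genes were lower as a group against all heterozygotes and against KG00226 heterozygotes. Of 82 tested, 71 fell and none rose, with a median of -0.36, beside 13.1% of features lower. Against KG00226 heterozygotes all 82 were lower (median -0.57), beside 20.7% of features. Against NP6070 heterozygotes only 5 were lower (median -0.14), beside 8.54% of features. Between the 2 written orders 49 were lower and 0 higher in NP6070/KG00226, beside 4.33% of features lower. RpL30 had 994, 850 and 886 CPM in KG00226/NP6070 and 318, 380 and 232 CPM in NP6070/KG00226, against 535 to 1516 CPM in heterozygotes, so 3 of the libraries overlapped the heterozygotes. The group's call ended when libraries were pooled into 2 groups (1 lower), when counts were summed by genotype (0) and when libraries were scaled to ERCC (0). Of 63 oxidative phosphorylation genes 29 fell (median -0.21), with 6, 0 and 1 lower under the same alternatives, 18 without KG00226/NP6070 replicate 3 and 44 without w1118/KG00226 replicate 3.

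The remaining lists stand beside 14% of all features higher and 13.1% lower against all heterozygotes, 21.1% and 20.7% against KG00226 heterozygotes, and 9.33% and 8.54% against NP6070 heterozygotes. Of 17 heat shock genes 4 rose and 2 fell, with Hsp70Ba, one of several near-identical copies whose reads may be shared, at 13.6 to 44.5 CPM in trans-heterozygotes against 0.917 to 45.0 CPM in heterozygotes. Of 13 antiviral RNAi genes 5 rose, among them vig at 0.43, which lies within an intron of vas, so that their reads may not be told apart. Against KG00226 heterozygotes 8 heat shock genes rose and 3 fell, and against NP6070 heterozygotes 1 rose and 2 fell. Of 19 apoptosis and stress genes 2 fell, with 1 higher and 9 lower against KG00226 heterozygotes and 3 higher and 3 lower against NP6070 heterozygotes. Of 24 replication and mitosis genes 1 rose and 2 fell, with 5 higher and 0 lower against KG00226 heterozygotes and 0 higher and 12 lower against NP6070 heterozygotes. Of 19 ecdysone genes 5 rose and 2 fell, with the nuclear receptor Hr4 at 0.84 and sro, a dehydrogenase of ecdysteroid synthesis, at -0.64. Of 17 JAK-STAT and BMP genes 3 rose and 3 fell, the BMP target Dad at -0.77, with 4 higher and 8 lower against KG00226 heterozygotes and 3 higher and 1 lower against NP6070 heterozygotes. Of 22 ovarian soma and follicle genes 1 rose and 3 fell, with 1 higher and 9 lower against KG00226 heterozygotes and 1 higher and 0 lower against NP6070 heterozygotes. Of 16 sex determination genes 2 rose. Of 10 immune genes 2 rose and 2 fell, and of 26 neighbours of sov 5 rose and 3 fell. Among 6 insulin-pathway genes 1 rose and 2 fell, among 3 Sox genes 2 rose and 1 fell, and of 5 histone variant genes 2 fell.

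Markers of other tissues were counted against the same shares of all features. Of 22 muscle markers 1 rose and 1 fell, with summed levels of 992 to 1264 CPM in trans-heterozygotes and 1004 to 1326 CPM in heterozygotes. Of 13 hemocyte markers 3 fell (948 to 1913 CPM in trans-heterozygotes, 977 to 2648 CPM in heterozygotes). Against KG00226 heterozygotes 0 rose and 8 fell, and against NP6070 heterozygotes 3 rose and 1 fell. Of 8 fat body markers 3 fell (1494 to 2240 CPM in trans-heterozygotes, 1278 to 2991 CPM in heterozygotes), and 3 of all 19 were at 0 in every library. None of 4 neuronal markers passed (124 to 147 CPM in trans-heterozygotes, 116 to 143 CPM in heterozygotes). Gut markers summed to 2.50 to 6.61 CPM in trans-heterozygotes and 3.07 to 978 CPM in heterozygotes, high in few heterozygote libraries, and none of 5 passed. Of 24 testis markers 13 had no count in any library, 2 were tested and 1 rose. The part of these tissues in the results above was not tested.

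The 2 written orders of the trans-heterozygote differed in 268 features (3.48%) higher and 333 (4.33%) lower in NP6070/KG00226 than in KG00226/NP6070, 9 (0.117%) and 30 (0.39%) of them over 2-fold. Without replicate 3 of NP6070/KG00226 the counts were 53 and 118, without KG00226/NP6070 replicate 2 they were 85 and 188, and without KG00226/NP6070 replicate 3 they were 125 and 187. With the left-out KG00226/w1118 library 156 were higher. TAHRE was 1.09 higher (SE 0.19, adjusted p = 0.00349), sov 0.52 higher (SE 0.10, adjusted p = 0.00455) and Ilp8 1.42 lower (adjusted p = 0.00349). Scaled to ERCC, 6 features were higher and 580 lower, and sov averaged 132.1 counts per 100 ERCC counts in NP6070/KG00226 and 132.7 in KG00226/NP6070. The log2 element share was 0.73 higher, with all 3 NP6070/KG00226 libraries above all 3 others (p = 0.10 in an exact two-sided permutation test, the smallest that 3 against 3 can give). Element counts per 100 ERCC counts overlapped, at 9274, 9725 and 11586 in NP6070/KG00226 and 7218, 9916 and 11456 in KG00226/NP6070.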

How the data were processed

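Polyadenylated ovary RNA was sequenced as stranded 50 bp single-end libraries with 200 ng of total RNA and 10 pg of ERCC spike-in. The authors deposited whole-number read counts per gene, element family and spike-in, and the series' design text names release 6.21. Gene names, positions and annotated insertions were taken from the BDGP6 annotation and its name tables, matched by gene ID. CASAVA 1.8.2, HISAT2 2.0.5 and HTSeq 0.7.2 are named in the submitters' processing notes, and the counting settings for strand and multiple matches are not given in the sources used here. Summary entries that name no gene held 12.6% to 21.5% of counts and were left out. Total gene counts were 3148547 to 10857835 per library, which sets the precision of low genes, and intervals cover counting error only.

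Genes and families passing edgeR's filterByExpr (7697) were scaled by TMM and tested with edgeR 4.0.16 quasi-likelihood fits (R 4.3.3, limma 3.58.1) over 6 genotypes, with Benjamini-Hochberg adjustment at 0.05. A second fit added the 3 homozygotes (7822 features). Shares were compared by exact permutation of libraries. A fold against a group with no counts was taken against 3 counts over the group. The fit was tested on simulated data. DESeq2 1.42.0, other scalings and filters, a subpool term, summed or pooled libraries, and single libraries left out were tried, and no alternative was added later. Named genes were the 10 risers and 10 fallers called in all 3 comparisons without overlap, up to 4 members of each list by adjusted p, and exceptions stated in the text. Members and lists were chosen with earlier results of these data known, and lists were cleaned once the count tables were seen. Same-numbered samples of different genotypes did not deviate together, so replicate numbers do not pair them.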

Additional observations from a re-analysis of the deposited data

Results flagged for a closer look

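Of 99 groups of libraries examined for a value far from the rest, 17 held one. The rule's chance rate of about 1 in 20 holds for normally distributed values and not for groups mostly at 0. The number 17 is thus no measure of an excess. Copia1 was 7.30 CPM in NP6070/KG00226 replicate 3, against 2.31 to 4.09 CPM in the other trans-heterozygotes. asRNA:CR45714 was 1.38 CPM in KG00226/NP6070 replicate 2, against 0.178 to 0.579 CPM in the others. CG5391 was 0.227 CPM in KG00226/NP6070 replicate 3 and 0 in the other trans-heterozygotes.

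Among heterozygotes, w1118/NP6070 replicate 2 had 2.37 CPM of CG31999 (4.24 to 5.20 CPM in the other NP6070 heterozygotes) and 16.2 CPM of CG11700 (10.2 to 12.01 CPM in the others). The remaining values stood out because the other libraries of their group were at 0. These were TART_B1 at 0.523 CPM and Ulysses_I-int at 0.261 CPM in KG00226/w1118 replicate 2, and TART_B1 at 0.192 CPM in NP6070/w1118 replicate 3. Ulysses_I-int was at 0.191 CPM and Sox21b at 0.0956 CPM in w1118/NP6070 replicate 1, and Stalker2 at 0.223 CPM in NP6070/w1118 replicate 1. CG32437 was at 0.401 CPM, dysf at 0.602 CPM and flip at 0.201 CPM in NP6070/w1118 replicate 2. lncRNA:CR46250 was at 0.183 CPM in w1118/KG00226 replicate 2 and 0.256 CPM in w1118/NP6070 replicate 3, and twz at 0.292 CPM in w1118/KG00226 replicate 1.

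Of 31 features examined, 6 differed between the written orders by edgeR's quasi-likelihood test, beside 3.48% of all features higher and 4.33% lower. As log2 values of NP6070/KG00226 over KG00226/NP6070, these were BATUMI 1.30 (adjusted p = 0.0299), TAHRE 1.09 (0.00349), TART 0.77 (0.0316), sov 0.52 (0.00455), CG10508 0.82 (0.0232) and lncRNA:CR43250 -1.48 (0.0263). Of all features, 53 were higher and 118 lower without replicate 3 of NP6070/KG00226, and 6 and 580 when scaled to ERCC.

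The KG00226/w1118 library left out of the comparisons had an element share of 0.451%, above the 0.0314% to 0.0468% of the other heterozygotes.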

How the results depend on the processing

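The 10 named element families kept their direction and call in every alternative run. Element share differences were 4.64 to 4.89, and differences per ERCC count 5.02 to 5.19, with single libraries left out. Depth limits genes with few counts, and calls rest on the spread between libraries. With libraries in 2 groups, 287 features were higher, 345 lower and 43 families higher, and with counts summed by genotype 76, 15 and 40. The cause was not tested.

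ERCC scaling gave 1971 higher and 135 lower against all heterozygotes, 294 and 312 against KG00226 heterozygotes, 4817 and 73 against NP6070 heterozygotes, 6 and 580 between written orders, 73 and 61 from additivity, 164 and 27 against KG00226 homozygotes, and 3278 and 93 against NP6070 homozygotes. The median of all features was 0.38 in the main comparison, against 0.01 with TMM, and the scaling turned arx (0.038), spn-E (0.17), armi (0.20), Yp3 (0.015), grk (0.046), c(3)G (0.035), RnrS (0.19), Mcm2 (0.19), His3.3A (0.20), cv (0.088), Fer1HCH (0.12), fra (0.00102), ND-ASHI (0.11), CG14441 (0.0946) and CG14434 (0.0946). Without KG00226/NP6070 replicate 1, sov was -0.0074, the lowest value with single libraries left out, and the highest was 0.083 without KG00226/NP6070 replicate 2. With the left-out library included, 156 were higher between orders (1 family), 262 higher (10 families) and 201 lower from additivity, and 20 families higher against KG00226 homozygotes.

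Leaving out single libraries gave 720 to 1105 higher and 825 to 1076 lower against all heterozygotes, with 65 to 75 families higher, 52 to 80 ribosomal protein and 18 to 44 oxidative phosphorylation genes lower. Ranges were 1265 to 1642 and 1233 to 1636 against KG00226 heterozygotes (62 to 70 families), and 449 to 806 and 500 to 770 against NP6070 heterozygotes (62 to 73 families), lowest without NP6070/KG00226 replicate 3 (449) and NP6070/w1118 replicate 1 (473). They were 53 to 328 and 118 to 391 between orders (1 to 12 families), and 288 to 654 and 274 to 553 from additivity (21 to 43 families). They were 213 to 593 and 284 to 839 against KG00226 homozygotes (21 to 45 families), and 560 to 1030 and 633 to 1143 against NP6070 homozygotes (0 to 1 family).

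Replicate numbers only name samples: same-numbered samples correlated with a median of 0.01 across genotypes. With a replicate block, 1011 features were higher, 999 lower and 73 families higher against all heterozygotes, and no count moved by over 1.5 times.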
